A study of Homo sapiens with 12 samples.

Results

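BIK and 9 further genes of the BCL2 family were followed in H9 and CT2, which are lines of human embryonic stem cells. The genes were BIK, BCL2, BCL2L1, BCL2L11, MCL1, BAX, BAK1, BID, PMAIP1 and BBC3, and all probes annotated to these symbols were taken. They came to 22 of the 47314 probes on the arrays, and 19 of the 22 were kept among the 25905 probes detected on at least 2 arrays. All 10 genes had at least 1 kept probe.

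Total RNA was measured on Illumina bead arrays in 6 groups of 2 arrays, 12 arrays in all. In the knockdown groups, H9 or CT2 cells carried an shRNA against JMJD1C, a jumonji-domain protein of the KDM3 histone demethylase family. The mismatch groups of each line carried a mismatch shRNA as the control hairpin, and the untreated groups of each line received no hairpin. The labels give no hairpin sequence, delivery, time after delivery or clone, and do not say whether replicates were separate cultures, so the p-values measure the spread between these arrays.

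BCL2 family proteins decide whether the outer mitochondrial membrane is breached during apoptosis. BCL2, BCL2L1 (BCL-XL) and MCL1 guard the membrane, BAX and BAK1 form its pores, and BH3-only proteins such as BIK, BID, BCL2L11 (BIM), PMAIP1 (NOXA) and BBC3 (PUMA) either switch on the pore formers or block the guardians. Human embryonic stem cells are known to enter this form of death readily after damage.

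JMJD1C itself was lower in the knockdown groups. Its brightest probe had log2 intensities of 10.60 and 10.71 in H9 knockdown, against 11.95 and 11.51 in H9 mismatch, and of 10.77 and 10.71 in CT2 knockdown, against 12.06 and 12.38 in CT2 mismatch (mean difference -1.28 ± 0.19, SE, adjusted p = 0.00138). Its other kept probe fell likewise (adjusted p = 0.000927 by limma). By line against mismatch, the brightest probe gave -1.08 ± 0.28 in H9 (adjusted p = 0.0696), which did not pass, and -1.48 ± 0.28 in CT2 (0.0117). The other probe passed in H9 (0.0499) and in CT2 (0.0104). Against untreated cells both probes passed in H9 (0.0189 and 0.0215) and neither in CT2 (0.2565 and 0.190). The median non-normalized intensity of an array ran from 150.2 to 196.8, and 44.7% to 47.31% of probes were detected on each. All 8 pluripotency markers with a kept probe, POU5F1, NANOG and SOX2 among them, were detected on every array. Of these, ZFP42 was lower in H9 knockdown than in H9 mismatch (-1.22 ± 0.17, adjusted p = 0.00116 by limma), and the other 7 did not pass there. In CT2 none passed, with ZFP42 at 0.66 ± 0.17 (0.0591). Replicates correlated across probes at r of 0.964 to 0.990. The lowest value belonged to CT2 mismatch, whose replicate 2 correlated best with replicate 1 of untreated H9 (r = 0.974) and whose replicate 1 correlated best with replicate 2 of H9 mismatch (r = 0.978). The labels and files do not settle whether these arrays hold the samples their labels name, and every CT2 comparison with mismatch rests on them. Untreated H9 replicate 2 also correlated best outside its group, with H9 mismatch replicate 1 (r = 0.9849). So did CT2 knockdown replicate 2, with untreated CT2 replicate 2 (r = 0.9865).

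BIK, the BCL2-interacting killer, is a BH3-only protein that sits mainly at the endoplasmic reticulum and binds the guardians. In both lines it was lowest in the knockdown cells. The log2 intensity of its single probe, ILMN_1770505, was 5.68 and 5.43 in H9 knockdown, 7.75 and 7.91 in H9 mismatch, and 6.00 and 7.04 in untreated H9. In CT2 it was 6.16 and 6.17 in knockdown, 8.37 and 6.87 in mismatch, and 7.35 and 7.16 in untreated cells. Within each line, both knockdown arrays lay below all mismatch and untreated arrays. In either direction, such separation in both lines was seen at 14.1% of all probes against mismatch and at 13.4% against untreated cells. The probe was detected on 10 arrays and not on those of H9 knockdown, where the scanner's detection values were 0.129 and 0.243 against a threshold of 0.05, so only a bound can be given there. On the CT2 knockdown arrays these values were 0.0195 and 0.0312, and 0.0364 on untreated H9 replicate 1, so BIK was just detected there.

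**Figure D1:**
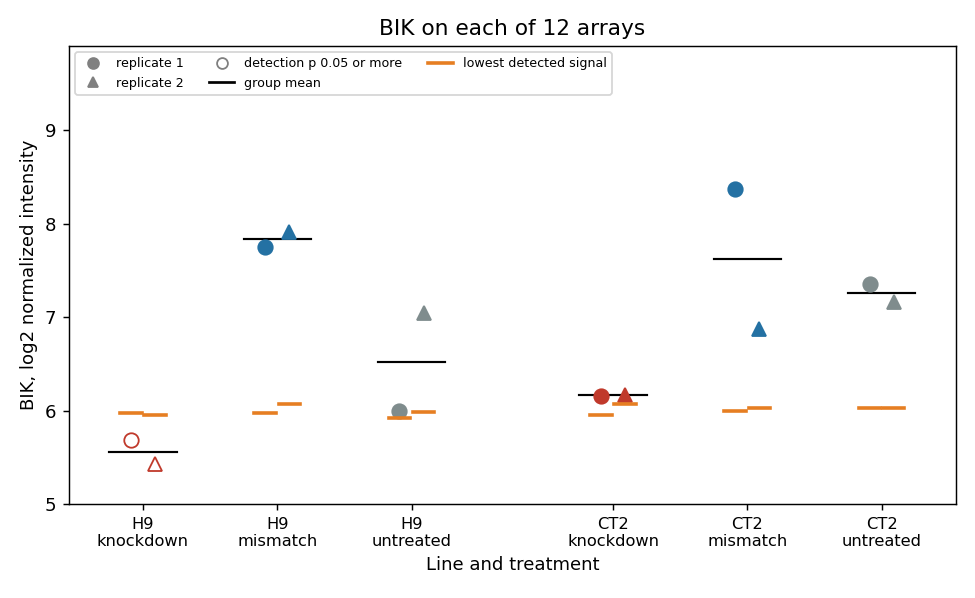
BIK log2 normalized intensity (vertical axis) on each array, by line and treatment; circles and triangles are replicates 1 and 2, black lines group means, orange ticks the lowest detected signal of each array and open symbols arrays with a detection p of 0.05 or more. The 2 H9 knockdown arrays lie below the detection level, at 5.68 and 5.43, and the 2 CT2 knockdown arrays lie just above it, at 6.16 and 6.17.

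Against the mismatch hairpin, BIK was lower in knockdown cells as the mean of both lines, with a log2 difference of -1.86 ± 0.31 (SE, 95% interval -2.52 to -1.2, adjusted p = 0.00278 by limma). With H9 knockdown set to the lowest detected signal of its arrays, the estimated fold was at least 3.16. That bound covers the detection limit and not the spread between arrays, which the interval gives. All 4 knockdown arrays were below both mismatch arrays of their line, a separation seen, in either direction, at 14.1% of all probes. In H9 the mean was 5.56 ± 0.18 in knockdown and 7.83 ± 0.12 in mismatch (SD, n = 2 each). The log2 difference was -2.28 ± 0.44 (95% interval -3.21 to -1.34, adjusted p = 0.0134 by limma), with an estimated fold of at least 3.66 on the same bound. In CT2 the mean was 6.17 ± 0.01 in knockdown and 7.62 ± 1.06 in mismatch, a difference of -1.45 ± 0.44 that missed the threshold of 0.05 (adjusted p = 0.0997). The responses of the lines were not shown to differ (H9 minus CT2 -0.83 ± 0.62, adjusted p = 0.767).

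The CT2 value turned on which mismatch array was used. Without CT2 mismatch replicate 2 the CT2 difference was -2.21 and passed the test (adjusted p = 0.0144), and the mean of both lines was then -2.25. Without CT2 mismatch replicate 1 the CT2 difference was -0.7, and the mean of both lines, at -1.49, stayed past the threshold. The non-normalized BIK signal of CT2 mismatch replicate 2, 210.6, was close to the 210.7 and 205.8 of the CT2 knockdown arrays, while its median signal over all probes was 160.7, against 190.9 and 186.5 on those 2 arrays. In H9 the call was lost when any of the 4 knockdown and mismatch arrays was left out, with differences of -2.41 to -2.12 and adjusted p of 0.103 to 0.170. With no background correction the mean difference was -0.87, still past the threshold.

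BIK in knockdown cells was also below untreated cells on all 4 arrays, the only member probe of 19 so separated (13.4% of all probes were, in either direction), and this comparison missed the threshold. The mean difference was -1.03 ± 0.31 (adjusted p = 0.113), -0.97 ± 0.44 for H9 alone (0.336) and -1.09 ± 0.44 for CT2 alone (0.539). The mismatch hairpin against no hairpin gave 0.84 ± 0.31 (adjusted p = 0.239), 1.31 ± 0.44 for H9 alone (0.540) and 0.36 ± 0.44 for CT2 alone (0.684). The knockdown arrays serve in the first of these comparisons and in that against mismatch, so the 2 are not independent. From low to high, the group means were 5.56 in H9 knockdown, 6.17 in CT2 knockdown, 6.52 in untreated H9, 7.26 in untreated CT2, 7.62 in CT2 mismatch and 7.83 in H9 mismatch. The arrays of CT2 knockdown lay within the range of untreated H9, and those of untreated CT2 and H9 mismatch within the range of CT2 mismatch. Untreated H9 and untreated CT2 differed by -0.74 ± 0.44 (adjusted p = 0.319).

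BIK was the only member probe called as the mean of both lines: 0 of 19 were higher and 1 was lower in knockdown than in mismatch cells. Over all 25905 probes, 3.8% were called, 1.86% higher and 1.94% lower (481 and 503 probes, against 586 and 300 under median scaling). At an unadjusted p under 0.05 there were 6 member probes, 2 higher and 4 lower, beside 17.1% of all probes. The median log2 difference of the 19 probes was 0.04, beside 0.01 over all probes. With CT2 mismatch replicate 2 and untreated H9 replicate 1 both left out, an alternative chosen after seeing the data, 5 member probes passed: BIK, BAX and PMAIP1 lower, BAK1 and BID higher, among 2025 probes in all. In H9 alone 0 were higher and 1 lower, where 1.4% of all probes were called, 0.594% higher and 0.807% lower. In CT2 alone 1 was higher and 1 lower, where 2.03% of all probes were called, 1.29% higher and 0.745% lower.

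**Figure D2:**
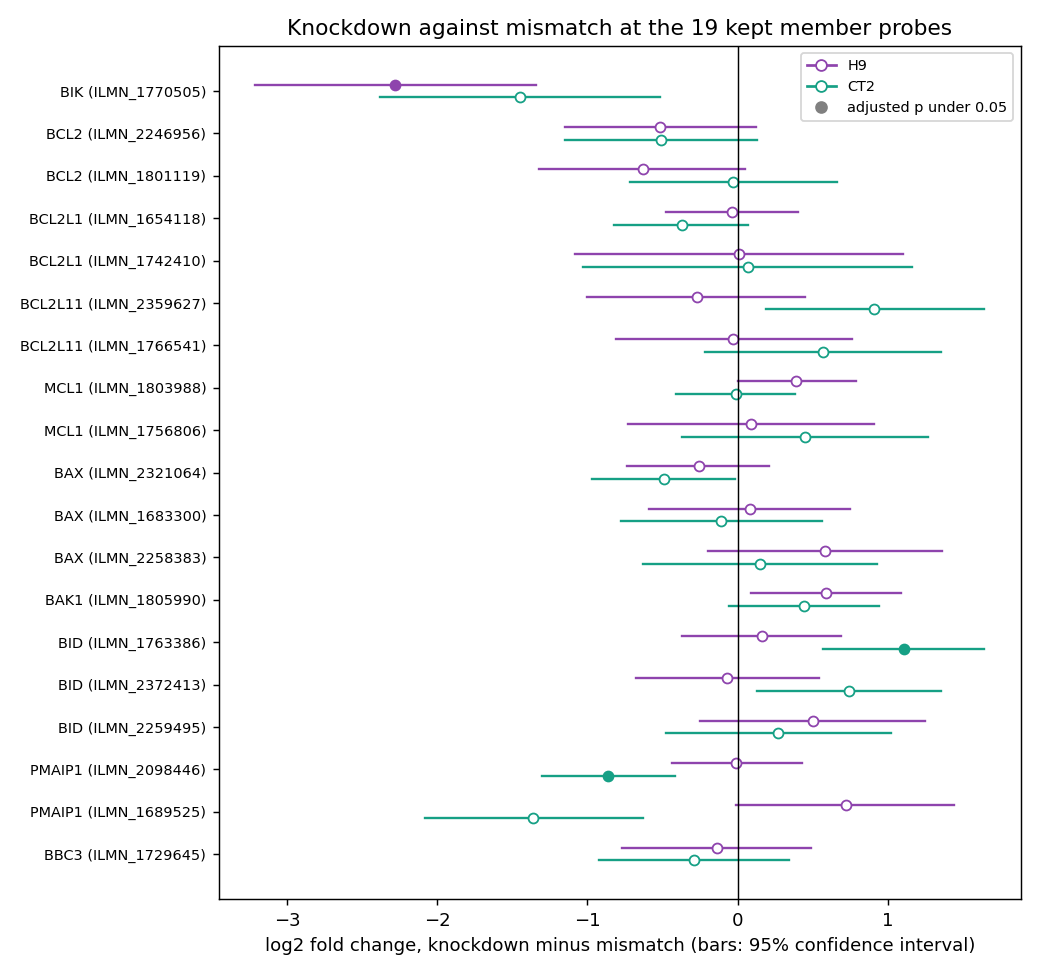
Log2 fold change of knockdown minus mismatch (horizontal axis) at the 19 kept member probes, in H9 (purple) and CT2 (green); bars are 95% confidence intervals and filled symbols have an adjusted p under 0.05. BIK lies at -2.28 in H9 and -1.45 in CT2, and the filled CT2 symbols are a BID probe at 1.11 and a PMAIP1 probe at -0.86.

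Of the guardians, none passed. BCL2, the founding member, had 4 probes, of which 2 were kept; of the others, 1 was detected on 1 array and 1 on 0 arrays. Its brighter kept probe, ILMN_2246956, had log2 intensities of 7.18 and 7.35 in H9 knockdown, 7.70 and 7.86 in H9 mismatch, and 7.37 and 7.33 in untreated H9. In CT2 these were 7.79 and 7.31 in knockdown, 8.34 and 7.79 in mismatch, and 7.45 and 7.49 in untreated cells. The mismatch arrays were the highest in H9, while in CT2 knockdown and mismatch met at 7.79. The knockdown minus mismatch difference was -0.51 ± 0.21 (adjusted p = 0.219), and the second probe gave -0.33 ± 0.23 (0.513).

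BCL2L1, which encodes BCL-XL, was ordered differently in the lines. Its brighter probe, ILMN_1654118, had 12.42 and 12.58 in H9 knockdown, 12.76 and 12.32 in H9 mismatch, and 13.02 and 13.34 in untreated H9. The CT2 arrays read 12.99 and 12.74 in knockdown, 12.98 and 13.50 in mismatch, and 12.65 and 12.54 in untreated cells. Untreated cells were thus above both hairpin groups in H9 and below both in CT2. The mismatch minus untreated difference was -0.64 ± 0.21 in H9 (adjusted p = 0.540) and 0.65 ± 0.21 in CT2 (0.0734), neither past the threshold. Knockdown minus mismatch was -0.21 ± 0.15 (0.531) at this probe and 0.04 ± 0.36 (0.976) at the other, whose CT2 mismatch replicates stood at 8.28 and 10.43.

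MCL1, a guardian with a short-lived protein, varied little at its brighter probe, ILMN_1803988. It had 12.33 and 12.34 in H9 knockdown, against 12.02 and 11.85 in H9 mismatch and 11.98 and 11.81 in untreated H9. Its CT2 values were 11.76 and 11.78 in knockdown, 11.95 and 11.62 in mismatch, and 11.78 and 11.97 in untreated cells. The H9 knockdown arrays lay above the other H9 arrays, and the CT2 groups overlapped. The mean difference of knockdown and mismatch was 0.19 ± 0.13 (95% interval -0.09 to 0.47, adjusted p = 0.515), with 0.39 ± 0.19 in H9 (0.525). The second MCL1 probe gave 0.27 ± 0.27 (0.688), and the r between the probes over 12 arrays was 0.

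Neither pore former passed the test in knockdown against mismatch. BAK1, measured by ILMN_1805990, had 9.44 and 9.28 in H9 knockdown, against 8.73 and 8.80 in H9 mismatch and 9.12 and 9.13 in untreated H9. Values in CT2 were 9.32 and 9.14 in knockdown, 8.65 and 8.93 in mismatch, and 9.09 and 9.19 in untreated cells. All 4 knockdown arrays were above both mismatch arrays of their line, the pattern opposite to that of BIK. The difference was 0.52 ± 0.17 (95% interval 0.16 to 0.87, adjusted p = 0.105), and against untreated cells it was 0.16 ± 0.17 (0.745). Separation of this kind, on 4 of 4 arrays and in either direction, was seen at 2 of the 19 member probes and at 14.1% of all probes.

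BAX had 3 kept probes that did not move together, with r between them of -0.29 to 0.12 over 12 arrays. The brightest, ILMN_2321064, had 12.56 and 11.94 in H9 knockdown, 12.42 and 12.60 in H9 mismatch, and 12.07 and 12.17 in untreated H9. In CT2 it had 12.31 and 12.50 in knockdown, 13.15 and 12.65 in mismatch, and 12.69 and 12.42 in untreated cells. The CT2 knockdown arrays were below both CT2 mismatch arrays, and the H9 groups overlapped. Knockdown minus mismatch was -0.38 ± 0.16 (adjusted p = 0.225), while ILMN_1683300 gave -0.02 ± 0.22 (0.983) and ILMN_2258383, detected on 2 arrays, gave 0.36 ± 0.26 (0.530).

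Untreated H9 and untreated CT2 differed at 1 of the 19 member probes, where 9.89% of all probes were called, 4.25% higher and 5.63% lower in H9. This was BAX probe ILMN_1683300, with 9.18 and 8.81 in untreated H9, against 7.83 and 7.84 in untreated CT2 (difference 1.16 ± 0.32, 2.24-fold, adjusted p = 0.0302). The brightest BAX probe lay the other way, at -0.43 ± 0.22 (0.243). The call at ILMN_1683300 was lost without untreated H9 replicate 1 (0.97, adjusted p = 0.180), without CT2 untreated replicate 1 (0.178) or without CT2 untreated replicate 2 (0.154), and in all it passed in 16 of 22 alternatives (0.81 to 1.40).

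**Figure D3:**
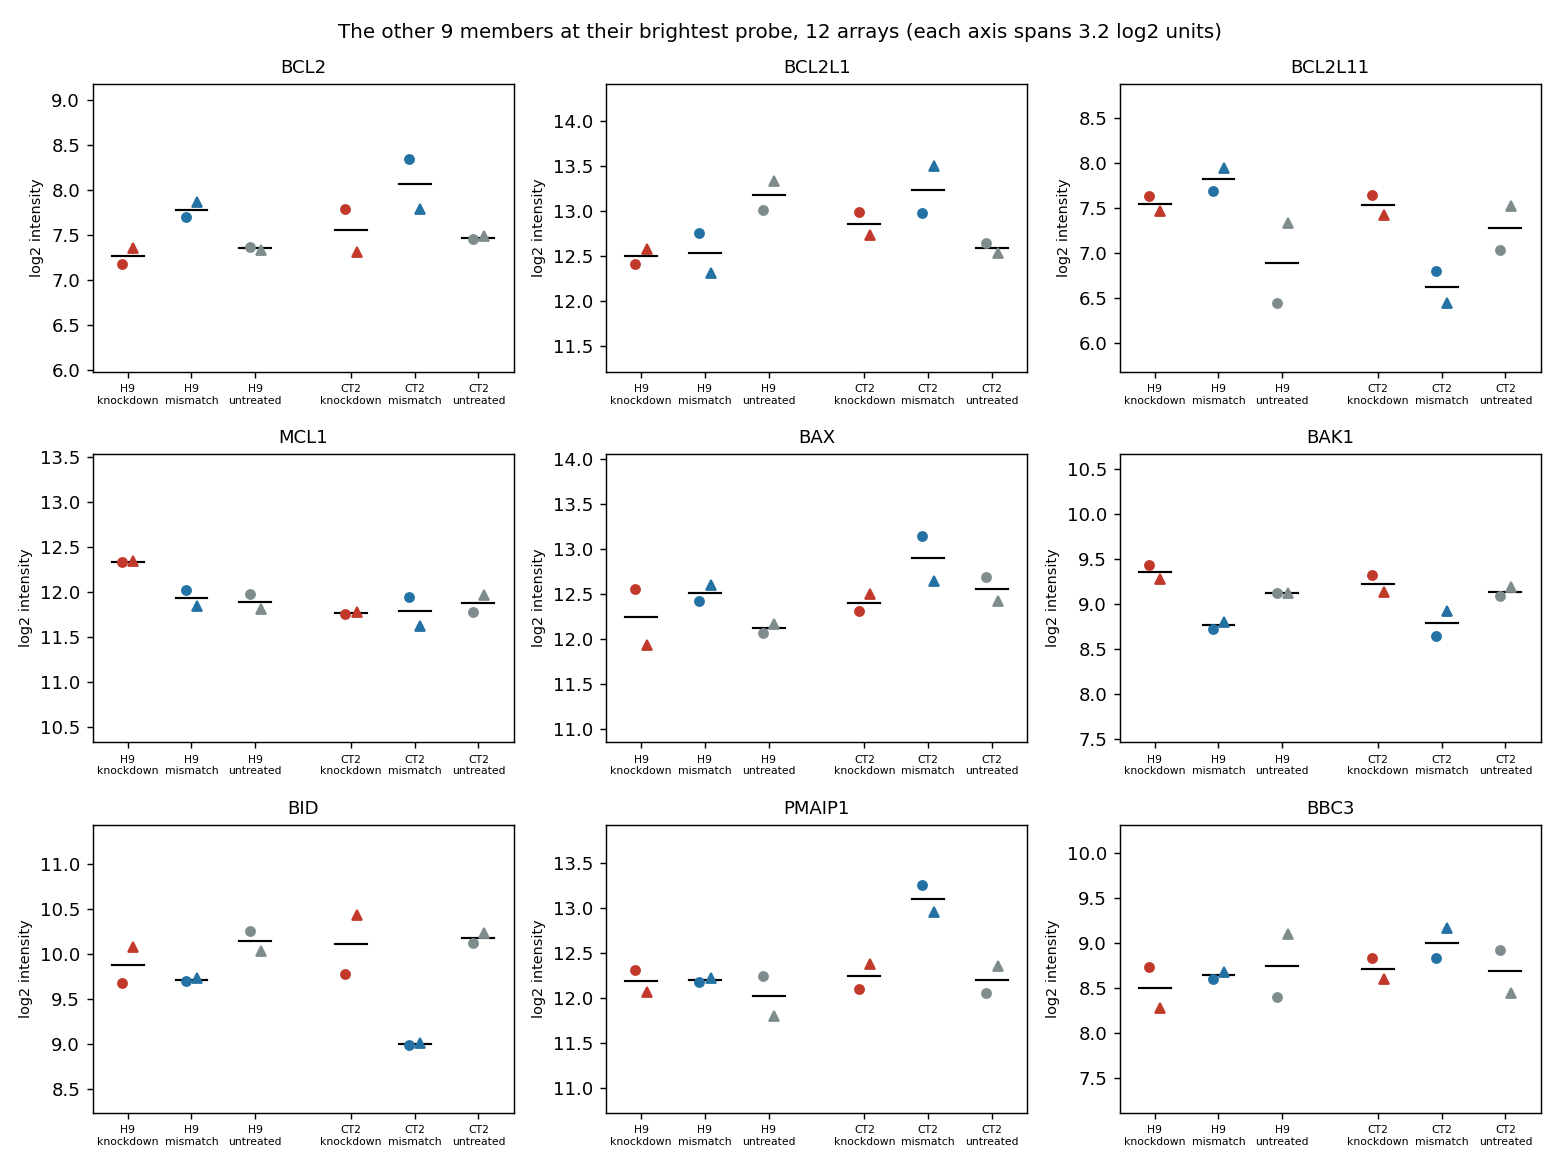
Log2 normalized intensity (vertical axes, each spanning 3.2 log2 units) of the brightest kept probe of the other 9 members on each array, by line and treatment; circles and triangles are replicates 1 and 2, and black lines are group means. BAK1 is higher on all 4 knockdown arrays than on the mismatch arrays of its line, and BID and PMAIP1 stand apart in CT2 mismatch.

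Among the other BH3-only genes, BID and PMAIP1 each had a probe called in CT2. BID encodes a protein that caspase 8 cleaves to carry the death receptor signal to mitochondria, and PMAIP1 encodes NOXA, which binds MCL1. BID was higher and PMAIP1 lower in CT2 knockdown than in CT2 mismatch, and neither passed in H9. Their promoters are shown because they are the members besides BIK with a called probe in a knockdown comparison. The sequences are the 250 bases before a RefSeq start in GRCh38.p14, chr22:17774470-17774719 on the minus strand for BID (the first of 5 listed starts) and chr18:59899746-59899995 on the plus strand for PMAIP1. Capitals mark the GC box GGGCGG and the CRE core ACGTCA on either strand, which do not overlap each other here.
BID: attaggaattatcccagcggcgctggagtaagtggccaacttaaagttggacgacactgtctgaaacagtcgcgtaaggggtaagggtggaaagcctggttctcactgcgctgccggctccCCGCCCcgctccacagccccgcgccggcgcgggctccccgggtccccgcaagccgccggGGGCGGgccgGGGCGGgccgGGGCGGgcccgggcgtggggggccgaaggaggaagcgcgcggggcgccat
PMAIP1: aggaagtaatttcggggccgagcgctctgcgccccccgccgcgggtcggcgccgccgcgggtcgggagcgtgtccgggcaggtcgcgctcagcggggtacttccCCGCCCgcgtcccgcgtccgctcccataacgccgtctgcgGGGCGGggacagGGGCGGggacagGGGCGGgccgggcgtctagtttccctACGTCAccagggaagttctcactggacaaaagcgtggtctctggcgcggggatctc
The GC box, the binding motif of SP1-type factors, occurs 4 times in each window and at least once in 42.64% of the 35116 windows of this length. The CRE core, the motif of CREB and ATF factors, occurs 1 time in the PMAIP1 window, 0 times in the BID window and in 7.102% of all windows. At the other listed BID starts the GC box occurred 1, 0, 4 and 3 times. RefSeq windows were found for 8 of the 10 members, and not for BIK or MCL1. These matches describe letters in the windows.

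The brightest BID probe, ILMN_1763386, had 9.68 and 10.08 in H9 knockdown, 9.70 and 9.73 in H9 mismatch, and 10.26 and 10.03 in untreated H9. For CT2 the values were 9.78 and 10.43 in knockdown, 8.99 and 9.01 in mismatch, and 10.12 and 10.23 in untreated cells. The CT2 mismatch arrays were the lowest of all 12. In CT2 the knockdown minus mismatch difference was 1.11 ± 0.25 (2.15-fold higher, adjusted p = 0.0329), and in H9 it was 0.16 ± 0.25 (0.946). Knockdown and untreated CT2 cells differed by -0.07 ± 0.25 (95% interval -0.6 to 0.46, adjusted p = 0.993), and mismatch fell below untreated CT2 cells by 1.18 on the log2 scale (± 0.25, adjusted p = 0.0133). The second probe, ILMN_2372413, gave 0.74 ± 0.29 for knockdown minus mismatch in CT2 (0.198) and -0.75 ± 0.29 for mismatch minus untreated (0.132), and the third gave 0.27 ± 0.36 (0.766) and -0.28 ± 0.36 (0.695). BID no longer passed against mismatch if CT2 knockdown replicate 2 was left out (0.78, adjusted p = 0.383), nor without either H9 mismatch array, either CT2 untreated array or CT2 mismatch replicate 2 (0.0571 to 0.0663), and in all it passed in 15 of 24 alternatives (0.78 to 1.43). The call against untreated cells was lost without CT2 untreated replicate 1 (0.116) or 2 (0.123).

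PMAIP1 was high in CT2 mismatch. Its brighter probe, ILMN_2098446, had 12.31 and 12.06 in H9 knockdown, 12.17 and 12.22 in H9 mismatch, and 12.24 and 11.80 in untreated H9. The CT2 arrays read 12.10 and 12.38 in knockdown, 13.25 and 12.95 in mismatch, and 12.05 and 12.35 in untreated cells. The CT2 mismatch arrays lay above the other 10. Knockdown minus mismatch was -0.86 ± 0.21 in CT2 (1.82-fold lower, adjusted p = 0.0419) and -0.01 ± 0.21 in H9 (0.998). Knockdown minus untreated in CT2 was 0.04 ± 0.21 (95% interval -0.4 to 0.48, adjusted p = 0.995), and mismatch was above untreated CT2 cells by 0.90 ± 0.21 (adjusted p = 0.0180).

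The second PMAIP1 probe, ILMN_1689525, had 9.46 and 9.61 in H9 knockdown, against 8.74 and 8.90 in H9 mismatch, and 9.52 and 9.05 in CT2 knockdown, against 10.13 and 11.15 in CT2 mismatch. The knockdown arrays were thus above mismatch in H9 and below it in CT2, with differences of 0.72 ± 0.34 (adjusted p = 0.528) and -1.36 ± 0.34 (0.0518). The difference between the lines was 2.07 ± 0.48 (adjusted p = 0.128), where 0.205% of all probes were called. Mismatch was above untreated CT2 cells by 1.64 ± 0.34 (3.11-fold, adjusted p = 0.0121). The CT2 call of ILMN_2098446 against mismatch passed in 10 of 24 alternatives, with differences of -1.01 to -0.66, and without CT2 mismatch replicate 2 it was -1.01 (adjusted p = 0.0409). It was lost without any single array of H9 knockdown, H9 mismatch, CT2 knockdown or CT2 untreated, or without CT2 mismatch replicate 1. The PMAIP1 calls of mismatch against untreated were lost without CT2 untreated replicate 1 (adjusted p = 0.197 and 0.122) or 2 (0.0864 and 0.102), and that of ILMN_1689525 also without CT2 mismatch replicate 2 (1.13, 0.0793).

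**Figure D4:**
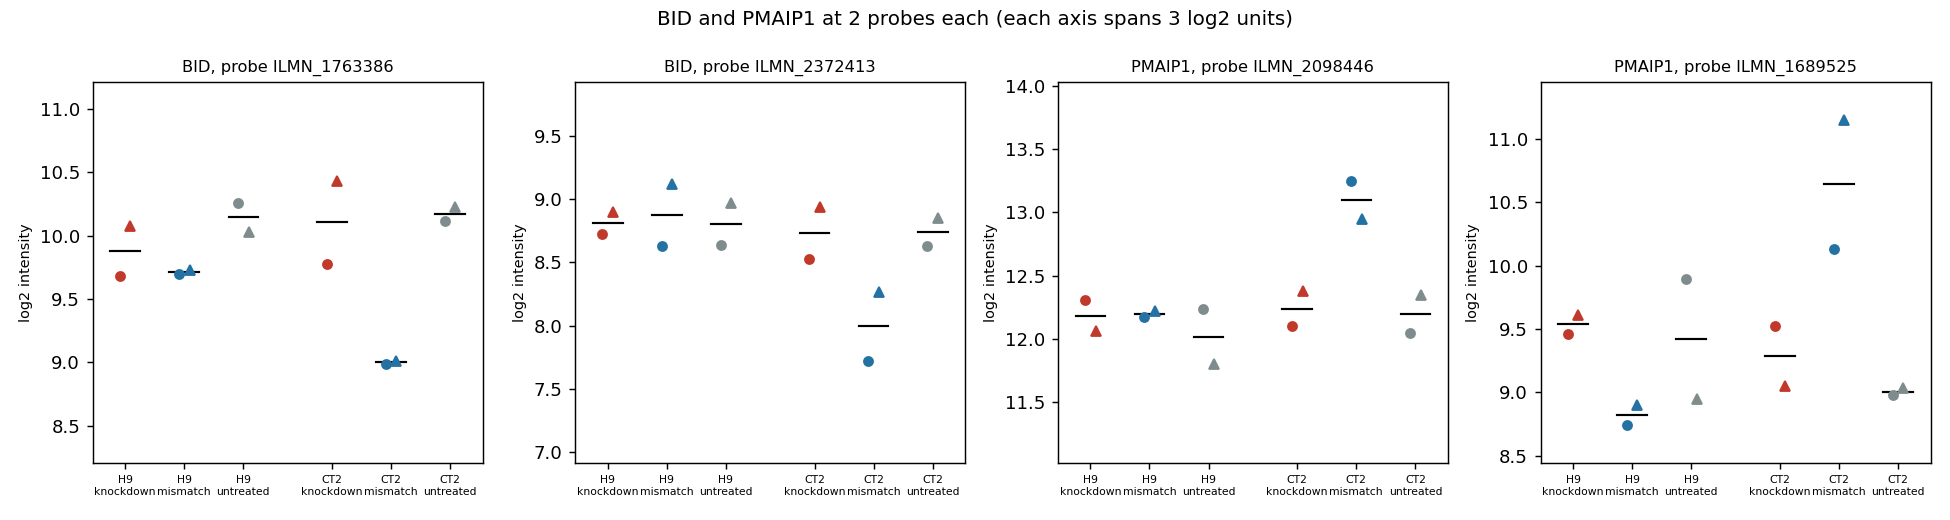
Log2 normalized intensity (vertical axes, each spanning 3 log2 units) of 2 BID and 2 PMAIP1 probes on each array, by line and treatment; circles and triangles are replicates 1 and 2, and black lines are group means. At the brighter probe of each gene the CT2 mismatch arrays stand apart, BID at 8.99 and 9.01 below all others and PMAIP1 at 13.25 and 12.95 above all others.

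The mismatch hairpin against no hairpin was called at 3 of the 19 member probes in CT2, 2 higher (both PMAIP1) and 1 lower (BID), where 7.1% of all probes were called, 2.93% higher and 4.18% lower. In H9 limma called 0 of 19 and 0.0309% of all probes; at an unadjusted p under 0.05 there were 4 member probes, beside 8.79% of all probes. As the mean of both lines it called 0 of 19 and 0.452% of all probes; at the unadjusted level there were 8 member probes, beside 13.5% of all probes. Knockdown against no hairpin was called by limma at 0 of 19 in each case, where 1.88% of all probes were called as the mean of both lines, 1.45% in H9 and 0.147% in CT2. At an unadjusted p under 0.05 there was 1 member probe as the mean of both lines, beside 13.6% of all probes, 3 in H9, beside 14.1%, and 1 in CT2, beside 7.54%. The line difference of the knockdown response was called by limma at 0 member probes, with 4 at an unadjusted p under 0.05, beside 8.93% of all probes.

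The other BH3-only members did not pass. BCL2L11, which encodes BIM, had 3 probes, and the 1 left out was detected on 0 arrays. The brighter, ILMN_2359627, had 7.63 and 7.47 in H9 knockdown, 7.69 and 7.95 in H9 mismatch, and 6.45 and 7.33 in untreated H9. Its CT2 values were 7.65 and 7.42 in knockdown, 6.80 and 6.45 in mismatch, and 7.04 and 7.52 in untreated cells. Knockdown was above mismatch on both CT2 arrays and below it on both H9 arrays, with 0.91 ± 0.34 in CT2 (adjusted p = 0.181), -0.27 ± 0.34 in H9 (0.921) and 0.32 ± 0.24 as the mean (0.559). The second probe gave 0.27 ± 0.26 (0.671), at an r of 0.26 with the first. BBC3, which encodes PUMA, had 8.73 and 8.28 in H9 knockdown, against 8.60 and 8.68 in H9 mismatch, and 8.83 and 8.60 in CT2 knockdown, against 8.83 and 9.17 in CT2 mismatch. Its groups overlapped or met, with a difference of -0.22 ± 0.21 (adjusted p = 0.673).

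Some markers on lists for other cell types differed between these groups. The summed normalized intensity of the fibroblast markers, 4 of 6 with a kept probe and COL3A1 and LUM not kept, was 13680 to 14490 in H9 knockdown and 9423 to 9974 in H9 mismatch. It was 10810 to 13220 in CT2 knockdown and 8410 to 10560 in CT2 mismatch. These sums were mostly THY1, whose mean log2 intensity in H9 knockdown was 13.47, beside 11.13 for COL1A2 and 8.70 for COL1A1. In H9 alone THY1 rose (0.87 ± 0.17, adjusted p = 0.0122 by limma) and COL1A1 fell (-1.57 ± 0.29, 0.00901). The markers did not move one way: as the mean of both lines THY1 rose (0.71 ± 0.12, adjusted p = 0.00256), COL1A1 fell (-1.05 ± 0.20, adjusted p = 0.00757), and COL1A2 (0.16 ± 0.18) and DCN (0.21 ± 0.26) did not pass. Endoderm markers, with FOXA2 and AFP kept and SOX17 and GATA6 not kept, summed to 722.7 to 1127 in H9 knockdown and 688.7 to 1006 in H9 mismatch. They summed to 1649 to 1690 in CT2 knockdown, 444.6 to 478.9 in CT2 mismatch and 1024 to 1244 in untreated CT2. Against mismatch, AFP was called by limma in CT2 (1.97 ± 0.27, adjusted p = 0.00162) and not in H9 (0.02 ± 0.27, 0.995). FOXA2, at background in both mismatch groups, did not pass in H9 (1.48 ± 0.42, 0.1255) or CT2 (0.08 ± 0.42, 0.954). Mesoderm markers, 2 of 4 kept, summed to 160.1 to 169.9 in H9 knockdown and 87.42 to 88 in H9 mismatch, but to 85.24 to 86.14 in CT2 knockdown and 94.19 to 128.7 in CT2 mismatch. Both kept markers, MIXL1 and EOMES, were detected on no array of H9 mismatch or CT2 knockdown, so those sums are background values. EOMES was also undetected in H9 knockdown. Neither passed by limma in H9 (MIXL1 1.04 ± 0.33, adjusted p = 0.194, EOMES 0.64 ± 0.47, 0.794) or in CT2. The trophoblast list was represented by KRT7 alone of 5, at 45.65 to 49.55 in H9 knockdown and 89.11 to 103 in H9 mismatch, and at 45.52 to 74.4 in CT2 knockdown and 67.12 to 89.06 in CT2 mismatch, which overlap. KRT7 was detected on neither array of H9 knockdown, so its value there is background. It did not pass by limma in H9 (-1.01 ± 0.35, adjusted p = 0.259) or CT2 (-0.41 ± 0.35, 0.607). The part of these markers in the BIK, BID and PMAIP1 differences was not tested, and in bulk RNA fewer cells of a type and less RNA per cell cannot be told apart.

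Beyond the 10 members, 7 lists of the same pathway were read at the brightest kept probe of each gene, knockdown against mismatch as the mean of both lines. Of the other BCL2 family genes, 11 of 13 were measured, and 0 rose and 1 fell. Over the brightest probes of all 13951 genes 5.14% were called, 2.46% higher and 2.68% lower. The gene was HRK, whose product harakiri is a BH3-only protein. It had 6.58 and 6.57 in H9 knockdown, 7.84 and 7.73 in H9 mismatch, and 7.29 and 7.72 in untreated H9. In CT2 it had 7.34 and 7.13 in knockdown, 8.35 and 7.76 in mismatch, and 8.82 and 8.56 in untreated cells. All 4 knockdown arrays lay below both control groups of their line. In either direction, 14.1% of all probes were so separated from mismatch and 13.4% from untreated cells. The difference was -1.01 ± 0.21 against mismatch (2.02-fold lower, adjusted p = 0.0138) and -1.19 ± 0.21 against untreated cells (0.00753), and these share the knockdown arrays. Neither line passed alone. Against mismatch it was -1.21 ± 0.30 in H9 (0.0629) and -0.82 ± 0.30 in CT2 (0.174), and against untreated cells -0.93 ± 0.30 (0.158) and -1.46 ± 0.30 (0.0776). The call against mismatch was lost without H9 knockdown replicate 1 (adjusted p = 0.0549) or 2 (0.0626), H9 mismatch replicate 1 (0.0718) or CT2 knockdown replicate 2 (0.0796).

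Of the genes that set the life of the MCL1 protein, all 4 were measured, and 0 rose and 2 fell. Over the brightest probes of all 13951 genes, 2.46% were called higher and 2.68% lower. USP9X, which removes ubiquitin from MCL1, had 12.29 and 12.14 in H9 knockdown, 13.54 and 13.31 in H9 mismatch, and 12.64 and 12.76 in untreated H9. On the CT2 arrays it read 13.71 and 13.69 in knockdown, 14.23 and 14.07 in mismatch, and 13.65 and 13.80 in untreated cells. The mismatch arrays were the highest of each line. Knockdown minus mismatch was -0.83 ± 0.11 (1.78-fold lower, adjusted p = 0.00047), and the call was kept in all 24 alternatives. That difference was the mean of both lines. In H9 it was -1.21 ± 0.16 (adjusted p = 0.000614 by limma), and in CT2 -0.45 ± 0.16 (0.1525), which did not pass. Knockdown minus untreated was -0.26 ± 0.11 as the mean (0.315), -0.49 ± 0.16 in H9 (0.1565) and -0.03 ± 0.16 in CT2 (0.996). As the mean, mismatch was above untreated cells by 0.57 ± 0.11 (0.0347). A second USP9X probe gave -0.23 ± 0.19 against mismatch (0.596).

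HUWE1, a ubiquitin ligase that marks MCL1 for breakdown, had 9.50 and 9.53 in H9 knockdown, 9.68 and 10.04 in H9 mismatch, and 9.89 and 9.94 in untreated H9. In CT2 it had 9.45 and 9.04 in knockdown, 10.42 and 10.25 in mismatch, and 9.24 and 9.50 in untreated cells. The knockdown arrays were below mismatch in both lines, and in CT2 they overlapped those of untreated cells. The difference against mismatch was -0.72 ± 0.17 (1.65-fold lower, adjusted p = 0.0250), and that against untreated cells was -0.26 ± 0.17 (0.546). By line, the difference against mismatch was -0.35 ± 0.24 in H9 (0.763), which did not pass, and -1.09 ± 0.24 in CT2 (0.0281). CT2 mismatch was above untreated CT2 cells by 0.96 ± 0.24 (0.0249), and CT2 knockdown minus untreated was -0.13 ± 0.24 (0.983). The call against mismatch was lost under median scaling (-0.58, adjusted p = 0.162), and in all it passed in 17 of 24 alternatives. It was also lost without H9 knockdown replicate 1 (0.0971) or 2 (0.0976), H9 mismatch replicate 1 (0.0515) or 2 (0.130), or CT2 knockdown replicate 2 (0.148).

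**Figure D5:**
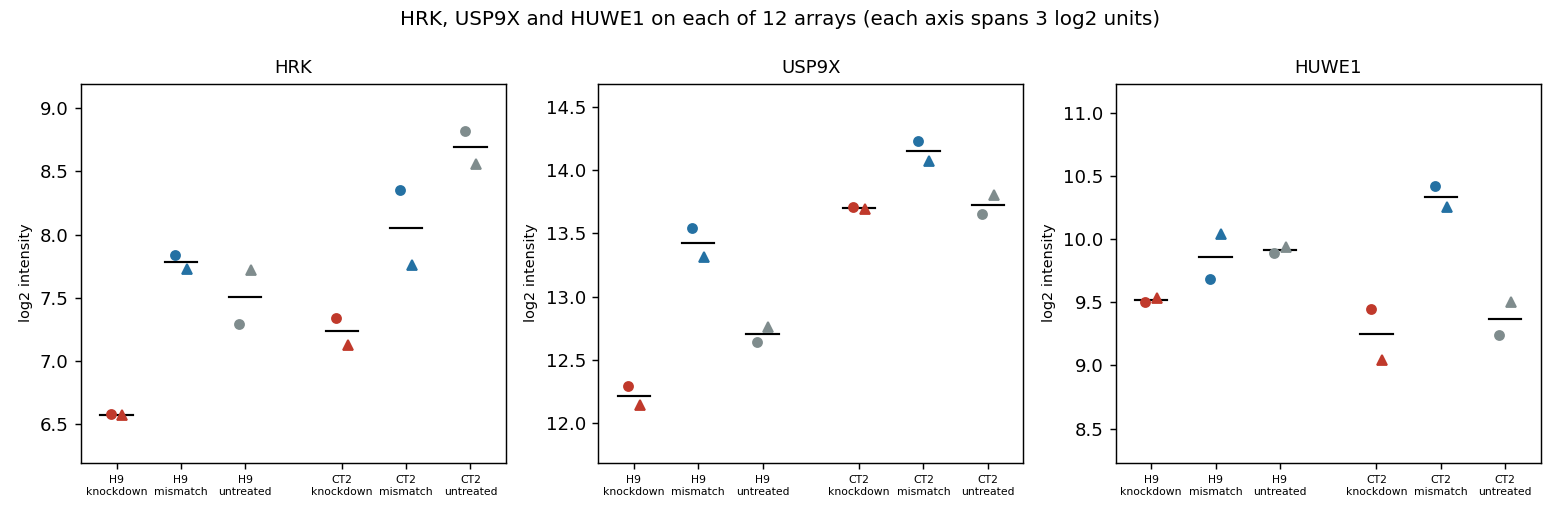
Log2 normalized intensity (vertical axes, each spanning 3 log2 units) of HRK, USP9X and HUWE1 on each array, by line and treatment; circles and triangles are replicates 1 and 2, and black lines are group means. HRK is lowest on the knockdown arrays of each line, at 6.58 and 6.57 in H9 and at 7.34 and 7.13 in CT2, while USP9X is highest on the mismatch arrays.

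In the other 5 lists limma called 0 genes in either direction, and the counts at an unadjusted p under 0.05 stand beside 17.1% of all probes. The apoptosome and mitochondrial release list had 10 of 11 genes measured, 1 of them at an unadjusted p under 0.05, and its leading genes were CYCS, cytochrome c, at 0.47 (adjusted p = 0.150), and CASP9, the caspase it activates, at -0.20 (0.622). Caspases and adaptors had 5 of 8 measured, 2 unadjusted, led by CFLAR, an inhibitor of caspase 8, at 0.64 (0.254), and FADD, the death receptor adaptor, at 0.32 (0.281). Inhibitors of apoptosis had 4 of 7 measured, 1 unadjusted, led by BIRC5, survivin, at 0.32 (0.215), and BIRC6 at 0.19 (0.706). Death receptors had 5 of 9 measured, 0 unadjusted, with the decoy receptor TNFRSF10D at 0.45 (0.314) and the TRAIL receptor TNFRSF10B at -0.23 (0.387). Transcription factors and other regulators had 7 of 9 measured, 0 unadjusted, with the stress response factors DDIT3 at -0.45 (0.348) and ATF4 at 0.13 (0.513). The list medians ran from -0.09 for death receptors to 0.16 for inhibitors of apoptosis, beside 0.01 over all genes.

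The genes whose pattern over the 12 arrays was most like that of BIK were sought among 13950 genes by Pearson's r, as a description, since all values share the arrays and their normalization. They were DPY19L1 (r = 0.944, rho = 0.909), PMEL (r = 0.944, rho = 0.958), CUX2 (r = 0.923, rho = 0.944), PLA2G10 (r = 0.92, rho = 0.972) and NCCRP1 (r = 0.916, rho = 0.951). Their knockdown minus mismatch differences were -0.78, -0.82, -0.68, -1.02 and -1.71 in that order. Of the members, BAK1 had an r of -0.86 with BIK, BCL2 of 0.72 and BAX of 0.68, each at its brightest probe.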

How the data were processed

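RNA of H9 and CT2 cells was measured on 12 bead arrays. The deposited table of raw values gives, per the file headers, a mean bead intensity for each probe and array. A detection p-value stands beside each, also per the file headers. Per the submitters' processing notes, the arrays were processed in GenomeStudio, at a version not stated in these sources. A value table that the authors deposited as well is in linear intensity, with a normalization that no label names, and served as an alternative. Columns of per-sample values that went unused numbered 0.

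Background was removed with limma 3.58.1 (R 4.3.3) and its normal-exponential fit (negative controls inferred from detection p, offset 16). Quantile normalization of all 12 arrays together and a log2 transform followed. A probe was kept if 2 or more arrays detected it at p under 0.05. A limma model with 1 mean per group, an intensity trend and robust settings gave two-sided tests. The adjusted p is Benjamini-Hochberg over all 25905 kept probes, with a threshold of 0.05. In a group with every array at a detection p of 0.05 or more, a fold is bounded by each array's lowest detected signal, and the difference and interval are those fitted. On simulated data for knockdown against mismatch as the mean of both lines, over 25905 probes, 63% of log2 changes of 1 and 100% of log2 changes of 2 were recovered, with 11 false calls. The simulated noise was independent and normal at the fitted variances, and each change was equal in both lines. It had no detection limit, so these rates may not hold at dim probes such as that of BIK. The number of arrays limits the precision.

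All probes of the members are described, the brightest first. From the wider lists, genes past the threshold as the mean of both lines are named, or the 2 with the smallest adjusted p; the 5 genes with the highest r name the likeness to BIK. The members and lists were chosen with earlier results of these data known. Probes carry gene symbols of the array's annotation, and outside the marker sums levels of different probes are not compared. The correlation of same-numbered replicates' deviations was over 0.1 in 4 of 15 pairs of groups (-0.39 to 0.38), so the numbers were not taken to pair the samples. Alternatives covered background, offset, scaling, filter, probe choice, replicate block, model settings, the authors' table and each array left out.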

Additional observations from a re-analysis of the deposited data

How the results depend on the processing

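The fall of BIK as the mean of both lines passed in all 24 alternatives (-2.25 to -0.87, adjusted p 2.57e-06 to 0.0225). BIK in H9 passed in 21 of 25 (-2.41 to -1.03), and the 4 exceptions each left out 1 H9 knockdown or mismatch array (-2.41 to -2.12, adjusted p 0.103 to 0.170). BIK in CT2 ran from -2.21 to -0.7 with single arrays left out and passed in 2 of 24 alternatives, without CT2 mismatch replicate 2 (-2.21) and, an alternative chosen after seeing the data, without that array and untreated H9 replicate 1 together (-2.2, adjusted p = 0.00146). The 1 member probe called became 2 with 1 probe per gene, 1 to 2 with single arrays left out, and 5 without the 2 arrays. The 984 probes called in all became 655 with a replicate block, 352 (without CT2 knockdown replicate 2) to 2066 (without CT2 mismatch replicate 1) with single arrays left out, and 2025 without the 2 arrays. Median scaling moved the split to 586 higher and 300 lower, against 481 and 503, with a median of all probes of 0.09. With the replicate block BIK stayed called (-1.86, adjusted p = 0.00669), while the CT2 calls of BID (0.0589) and PMAIP1 (0.0787), the BAX line difference (0.0515) and HUWE1 (0.0521) were lost. None of the values that changed sign was called. BCL2L1 probe ILMN_1742410 went to 0 with no background correction, -0.01 in the authors' table, and ran from -0.5 to 0.58 with single arrays left out, below 0 without H9 mismatch replicate 2 (-0.14), CT2 knockdown replicate 2 (-0.05) or CT2 mismatch replicate 1. MCL1 probe ILMN_1756806 ran from -0.08, without CT2 mismatch replicate 1, to 0.62. BAX probe ILMN_1683300 gave 0.06 under median scaling, 0.11 without the 2 arrays, and -0.18 to 0.15 with single arrays left out, above 0 without H9 knockdown 2, H9 mismatch 2 (0.12), CT2 knockdown 2 or CT2 mismatch 2 (0.11). The cause of these changes was not tested. The slide as a block was not run, since the files used here give no slide. BIK was at background in H9 knockdown, which limits its fold there to a bound. In CT2 knockdown it was just above, at 6.16 and 6.17 against lowest detected signals of 5.95 and 6.07, so the CT2 difference also lies near the detection limit.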
